A study of Mus musculus with 47 samples.

Results

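Trp53, the gene of the transcription factor p53, and 9 genes that p53 is known to activate (Mdm2, Cdkn1a, Ccng1, Plk2, Bax, Bbc3, Sesn2, Phlda3 and Gdf15) were followed through exposure of P19 cells to 4-thiouridine (4sU) and through its removal. They were chosen by name, as the 3′ UTR entries whose RefSeq transcripts belong to these genes, and all 10 were found among the 18980 genes with a 3′ UTR entry. p53 is held low in unstressed cells by the ubiquitin ligase encoded by Mdm2, and damage to DNA or to ribosome assembly frees it to activate genes for cell cycle arrest, cell death and metabolic adjustment, Mdm2 among them. 4sU is a uridine analog that cells build into new RNA, and at high doses it can disturb ribosomal RNA production, a known route to p53 activation. The reads of p53 targets therefore bear on whether the cells responded to the label itself, and the same libraries give the labeling and loss of these transcripts.

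The cells were the wild-type mouse embryonal carcinoma line P19, either undifferentiated (D0) or after 6 days of neuronal differentiation in NDiff 227 medium with retinoic acid (D6). RNA was measured by SLAM-seq, in which incorporated 4sU is alkylated and read as a T-to-C conversion, with libraries primed from the poly(A) tail. In the anabolic assay the cells were sampled without 4sU and at 3 times in its presence, the last at 9 h, and in the catabolic assay after 15 h of labeling and at 3 times after 4sU was replaced by an excess of UTP, again to 9 h. The methods put the labeling before removal at 15 h in one place and at 13 h in another, and 15 h is used here. The 4sU concentration was 20 µM at D0 and 500 µM at D6, so dose and state cannot be told apart. Each of the 16 groups held 3 libraries except the third catabolic time point at D6, which held 2, for 24 libraries at D0 and 23 at D6. The hours of the second and the third time points differ between the sample labels and the study's methods, so these points are called the second and the third here. The study describes its replicates as biological, and the labels do not say at which step they were separated, so the p-values measure the spread between these libraries.

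Library depth ranged from 1489528 to 11677046 reads on 3′ UTRs, with a median of 5750402. The D6 libraries were shallower and less alike: the mean correlation of a library with the others of its group, over the log2 CPM (counts scaled to library size with TMM factors) of all genes tested, was 0.83 to 0.959 at D0 and 0.605 to 0.847 at D6. The lowest values belonged to both libraries of the third catabolic time point at D6, and D6 anabolic 9 h replicate 53 (0.703) and replicate 45 of the third anabolic time point at D6 (0.712) also stood low. Replicate 53 had 1378982 reads on the genes kept, read 62.1% of the genes tested, and held 0 reads of Cdkn1a, Bax and Phlda3. At D0 the lowest values were those of the 0 h libraries, at 0.83 to 0.866 (anabolic) and 0.846 to 0.856 (catabolic). All other D0 libraries were at 0.895 or more. The catabolic 0 h libraries were also the shallowest at D0. Every D0 comparison of reads after 9 h, 15 h or removal uses 1 or both of these 0 h groups. Markers followed the labels: the summed CPM of 6 pluripotency genes were 320 to 710 at D0 and 0.953 to 41.2 at D6, and those of 5 neuronal genes were 510 to 715 at D0 and 6578 to 10551 at D6. Zfp42 and Dppa5a, both on the pluripotency list, had 0 reads in every library. For markers of other cell types the summed CPM were 72.7 to 151 at D0 and 0.18 to 35.3 at D6 for 4 fibroblast and muscle genes, 5.31 to 45.8 and 0 to 151 for 4 glial genes, and 0 to 8.52 and 0 to 32.1 for 4 endoderm genes. In these bulk samples, fewer cells of a type and less RNA per cell cannot be told apart.

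Because each read starts near the poly(A) tail, a transcript is counted only if its 3′ end lies in the annotated interval. The ends are shown for the member that was nearly absent, for Cdkn1a, which had more reads at D6 than at D0, and for Sesn2, whose annotated transcript runs 772 bases past its interval. Each line gives the last 30 bases of the sequence searched, written on the transcript strand from the mm10 genome with GENCODE transcript ends, and capitals mark the poly(A) signal AATAAA.
Trp53, chr11:69591844-69591873, plus strand: tattttacAATAAAattttgttatcactta
Cdkn1a, chr17:29100693-29100722, plus strand: ctggtgctcAATAAAtacttctcgatgatt
Sesn2, chr4:132492804-132492833, minus strand: gaatgcttgccaaaaacaaacaaacaaaaa
The AATAAA signal lay within the last 50 bases for every member except Sesn2 and Phlda3. None of the intervals overlapped the 3′ UTR of another gene, and in the last 300 bases of each no stretch of 50 bases was shared with the transcripts of another gene. Copies outside annotated transcripts were not searched.

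Mdm2, Ccng1, Plk2 and Gdf15 carried the AU-rich heptamer TATTTAT, a sequence known to be bound by proteins that shorten mRNA life, searched on the transcript strand only. These sites are shown with their flanks, although Plk2 and Gdf15 lacked the coverage for the tests of label loss below. A link between the heptamer and the loss of label was not tested. Capitals mark the heptamer.
Mdm2, chr10:117688914-117688943, minus strand: ggcattgatgtTATTTATttgcaaataaat
Ccng1, chr11:40749076-40749105, minus strand: ctctgaaaatgTATTTATtgcactaaagtt
Plk2, chr13:110400734-110400763, plus strand: aataaacttttTATTTATtacagccccaag
Plk2, chr13:110400758-110400787, plus strand: cccaagagcagTATTTATtatcaagatgtt
Gdf15, chr8:70629481-70629510, minus strand: ttcaaggatgcTATTTATatttgtatttat
Gdf15, chr8:70629469-70629498, minus strand: atttatatttgTATTTATtaatattattaa
Gdf15, chr8:70629417-70629446, minus strand: gatggattgtgTATTTATttaaaactctgc
Gdf15 held 3 copies within a 3′ UTR of 149 bases, where 0.102% of the 984 UTRs of 100 to 200 bases held as many. Plk2 held 2, and 3.99% of UTRs of 500 to 800 bases held as many or more. Mdm2 and Ccng1 held 1 copy, and at least 1 was found in 29.4% of UTRs of 1000 to 1500 bases and 44.2% of those of 2000 to 2700 bases. A match is a description of the sequence and not evidence of binding.

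Reads differed widely among the members. Counts below are raw reads. Since transcripts are primed once at the end, CPM is not divided by length, and it is used here to compare libraries within a gene.

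Trp53 itself was nearly unread. It had 8 reads in all, every one of them in D0 catabolic 9 h replicate 34 (1.08 CPM), and 0 reads in the other 46 libraries. At D6 its 23 libraries held 0 reads, which allows up to 0.0346 CPM over the state (not TMM-scaled), for counting error only. p53 is regulated mainly through the stability of its protein, and no level of Trp53 mRNA could be followed in these libraries.

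Mdm2, the ligase and feedback inhibitor of p53, held most of the members' reads. Its 28033 reads fell in all 47 libraries, from 53.5 to 163 CPM at D0 and from 3.00 to 209 CPM at D6. The lowest of these was replicate 45 of the third anabolic time point at D6, with 9 reads, beside 159 and 112 CPM in the other libraries of its group. In that library Cdkn1a and Bbc3 were at their highest, with 92.3 and 114 CPM, while Ccng1, Sesn2 and Phlda3 had 0 reads.

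Every other member was at 0 in some libraries. Bax, a pore-forming effector of cell death, had 6592 reads and was at 0 in 3 libraries. Sesn2, a stress-induced inhibitor of mTORC1, had 4157 reads and 5 libraries at 0. Bbc3, which encodes the cell death activator PUMA, had 3453 reads and 7 libraries at 0. Ccng1, cyclin G1, which acts in the Mdm2 feedback circuit, had 2818 reads and 4 libraries at 0. Phlda3, an inhibitor of Akt signaling, had 2473 reads and 8 libraries at 0. Cdkn1a, which encodes the cell cycle inhibitor p21, had 1776 reads and 11 libraries at 0. Plk2, a stress-induced kinase, and Gdf15, a secreted stress cytokine, had 242 and 150 reads, with 39 and 40 libraries at 0.

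Libraries of a group often disagreed about whether a member was present at all. Among the 9 members with enough reads to test, 37 of 144 combinations of member and group (25.7%) held a library with 0 reads beside one with 20 or more. Over all 13312 genes tested this share was 13.7%. Cdkn1a did so in 9 of 16 groups, Bbc3 in 6, Gdf15 in 5, Ccng1, Sesn2 and Plk2 in 4 each, Phlda3 in 3, Bax in 2 and Mdm2 in none. The reads carry no molecular identifiers, so the number of molecules behind them is not known. In some libraries the T positions covered by the reads were a whole multiple of the read count. For Plk2, 100 reads covered 3100 in replicate 42 of the second anabolic time point at D6. For Cdkn1a, 73 reads covered 2701 in D0 catabolic 9 h replicate 35. Copies of 1 molecule would give such values, as could separate reads of equal T content, and this was not tested.

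**Figure D1:**
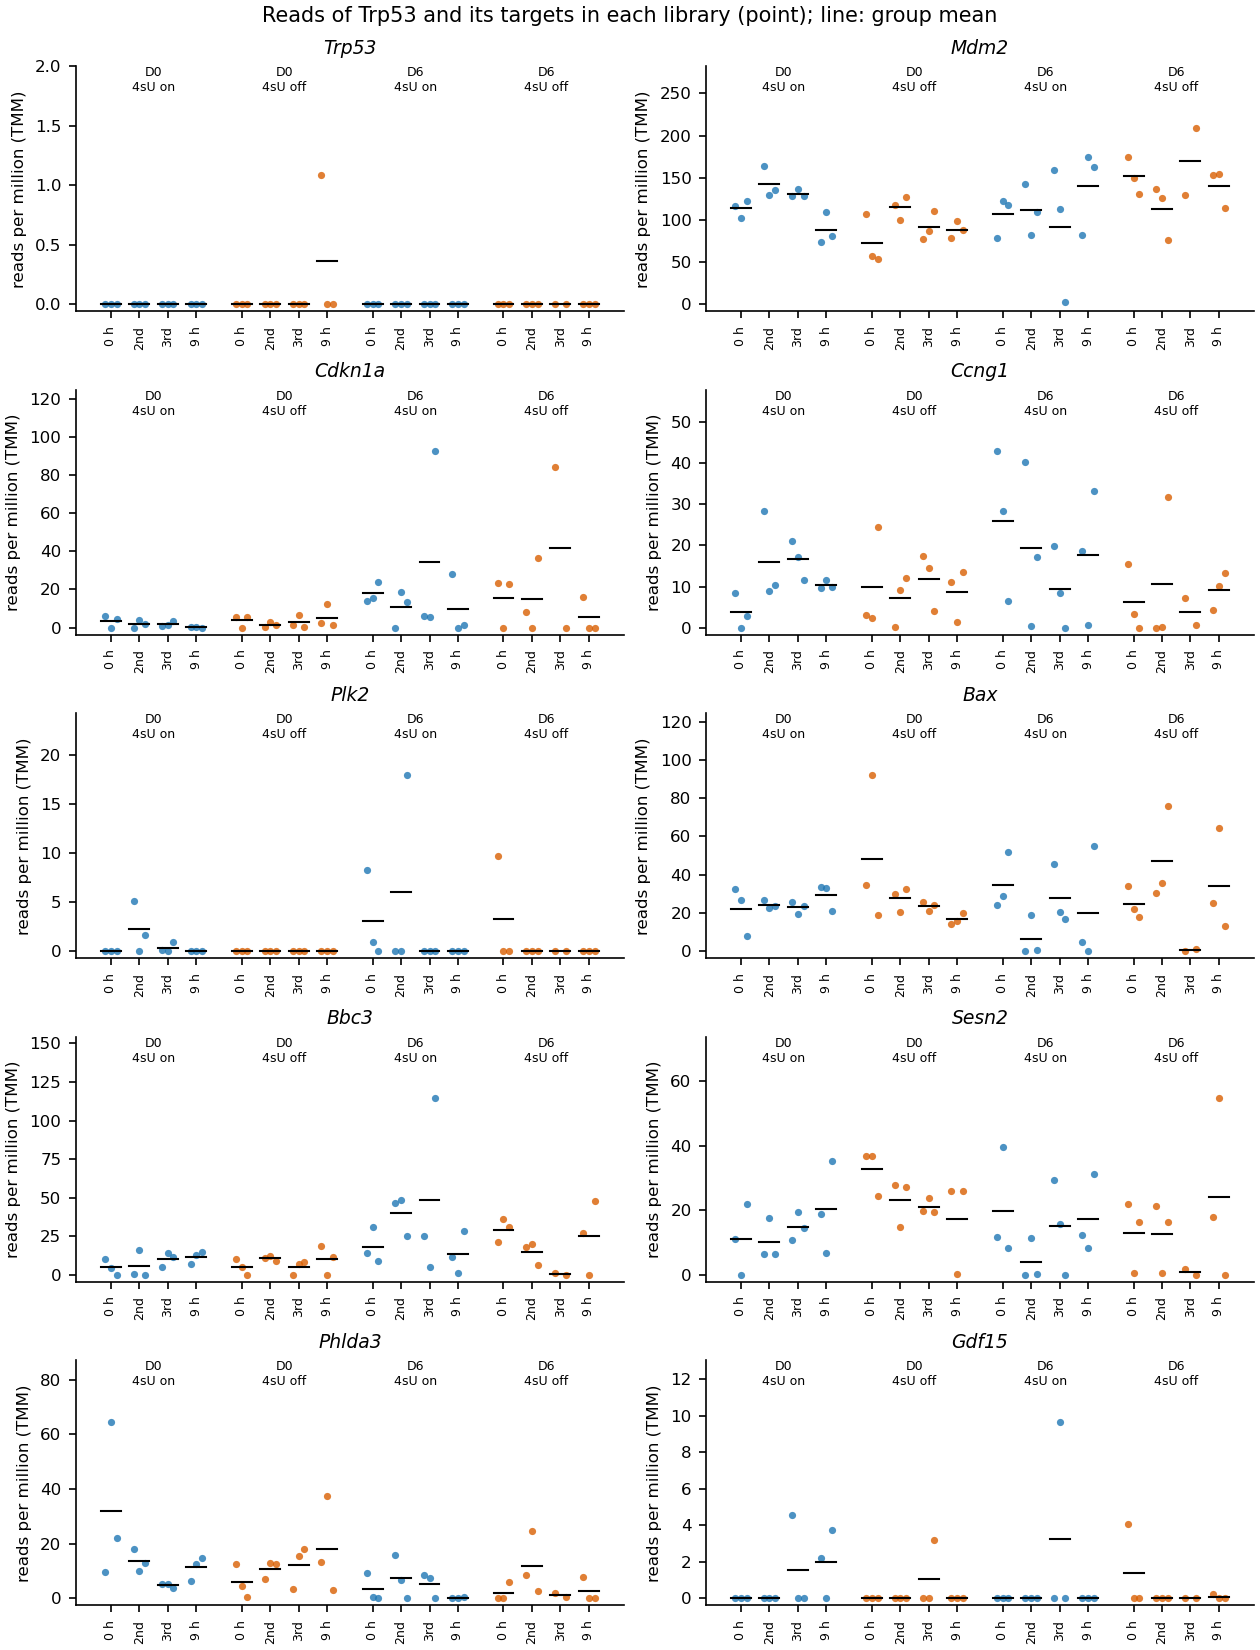
TMM-scaled CPM (vertical axis, linear, a separate range for each gene) in each of the 47 libraries (points) at the 0 h, second, the third and 9 h time points, with the group mean as a line. "4sU on" is the anabolic assay, whose 0 h libraries had no 4sU, and "4sU off" the catabolic assay, whose 0 h libraries had 15 h of 4sU. Mdm2 is present throughout, whereas the other targets include libraries at 0 beside libraries with many reads.

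The first question was whether the targets rose while 4sU was present. No member passed the test after 9 h of 4sU in either state (edgeR quasi-likelihood test with Benjamini-Hochberg adjustment, adjusted p under 0.05). At D0, 0 of 8 members tested were called, where 0.0162% of the 12319 genes tested were, and 1 member, Cdkn1a, had an unadjusted p under 0.05, in the direction of fewer reads. At D6, 0 of 9 were called, where 0% of 11952 genes were, and 0 had an unadjusted p under 0.05. An unadjusted p under 0.05 was found for 832 of all genes at D0 and 461 at D6. DESeq2 called 0 members in both states, with 1 and 0 at an unadjusted p under 0.05, and called 89 of 11800 genes at D0 and 29 of 11255 at D6.

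Mdm2 gave the most precise comparison. At D0 its level was 116, 103 and 122 CPM without 4sU and 73.9, 109 and 81.4 CPM after 9 h, so the groups overlapped with the labeled libraries mostly lower. The log2 fold change was -0.37 (SE 0.25, edgeR adjusted p = 0.794). At D6 the levels were 78.8, 123 and 118 CPM without 4sU and 81.7, 175 and 163 CPM after 9 h, again overlapping, for a log2 fold change of 0.41 (SE 0.70, edgeR adjusted p = 1). It was 0.23 without D6 anabolic 9 h replicate 53, 0.28 without replicate 54 and 0.68 without replicate 52, and 0.24 without D6 anabolic 0 h replicate 37.

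Cdkn1a, the most widely used readout of p53 activity, was lower after 9 h at D0 than before it. It had 41, 0 and 30 reads without 4sU (5.90, 0 and 4.66 CPM) and 2, 1 and 0 reads after 9 h (0.294, 0.0894 and 0 CPM), with 1 control library as low as the labeled ones. The ratio of the summed reads, each relative to its group's total, was 0.0323, with an exact interval of 0.00651 to 0.0984 at the 95% level for counting error only, and between libraries the difference did not pass the test (edgeR adjusted p = 0.705). After 15 h at D0, Cdkn1a was at 5.82, 0 and 5.81 CPM, within the range of the libraries without 4sU (log2 fold change 0.14, SE 1.92, edgeR adjusted p = 1). At D6 Cdkn1a had 14, 15.6 and 24.1 CPM without 4sU and 28.1, 0 and 1.13 CPM after 9 h, so that the labeled libraries lay on both sides of the controls.

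None of the remaining targets passed the test. At D0, 5 of the 6 others with reads in this comparison (Ccng1, Bax, Bbc3, Sesn2 and Gdf15) had higher means after 9 h and Phlda3 a lower one, and at D6 the means of Ccng1, Bax, Bbc3, Sesn2, Plk2 and Phlda3, 6 of 6 with reads, were lower. Among the 8 members tested the median log2 fold change was 0.63 at D0, and among the 9 at D6 it was -0.51. Neither median was stable: leaving out 1 library at a time gave 0 (without D0 anabolic 0 h replicate 57) to 0.77 (without replicate 55) at D0, over 9 members since Plk2 then entered at a fitted 0, and -1.38 (without D6 anabolic 9 h replicate 54) to 0 (without replicate 53) at D6, with -0.29 without replicate 52. Bax, for instance, had 32.2, 26.6 and 8.08 CPM without 4sU at D0 and 33.6, 32.8 and 21.2 CPM after 9 h (log2 fold change 0.39, SE 0.52, edgeR adjusted p = 0.988). Bbc3 stood at 10.1, 4.20 and 0 CPM without 4sU at D0 and at 7.05, 12.5 and 14.7 CPM after 9 h (log2 fold change 1.25, SE 1.69, edgeR adjusted p = 0.989). Both rested on single control libraries: without D0 anabolic 0 h replicate 57 Bax was at -0.0054 and Bbc3 at 0.67, and without replicate 55 they were at 0.77 and 2.46. For 7 members with reads in most libraries (Mdm2, Cdkn1a, Ccng1, Bax, Bbc3, Sesn2 and Phlda3), the standard errors of the 9 h change at D6 ran from 0.70 (Mdm2) to 3.27 (Phlda3) on the log2 scale.

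Gdf15 and Plk2 were too sparse for a fold change. At D0, Gdf15 had 0 reads in the 3 libraries without 4sU and 15, 0 and 22 reads after 9 h, with an edgeR adjusted p of 0.705. Plk2 had 35, 3 and 0 reads without 4sU at D6 and 0 reads in the 3 libraries after 9 h.

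The 15 h exposure compares the start of the catabolic assay with the same unlabeled libraries, so it shares its controls with the 9 h comparison, and the assay differs as well as the exposure. No member passed the test here either. At D0, 0 of 8 were called (0.0568% of all genes tested), with 3 at an unadjusted p under 0.05, and at D6, 0 of 9 (0% of all genes tested), with none at that level. Over all genes, 1555 of 12319 at D0 and 281 of 11952 at D6 were at that level. DESeq2 called 0 members in both states, with 3 and 0 at an unadjusted p under 0.05, and called 410 of 11800 genes at D0 and 20 of 11461 at D6.

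The 3 members at D0 did not share a direction. Mdm2 was at 107, 56.9 and 53.5 CPM after 15 h, beside 116, 103 and 122 CPM without 4sU (log2 fold change -0.65, SE 0.25, edgeR adjusted p = 0.298), so that 2 of 3 libraries lay below every control. Phlda3 was at 12.7, 4.53 and 0.306 CPM beside 9.64, 64.6 and 21.9 CPM (log2 fold change -2.44, SE 0.98, edgeR adjusted p = 0.312). Bax alone was higher, at 34.4, 92.1 and 18.7 CPM beside 32.2, 26.6 and 8.08 CPM (log2 fold change 1.11, SE 0.53, edgeR adjusted p = 0.388). Both groups overlapped for Bax and for Phlda3. The Bax value was 0.27 without D0 catabolic 0 h replicate 26 and 0.71 without D0 anabolic 0 h replicate 57, that of Phlda3 was -1.42 without D0 anabolic 0 h replicate 56 and -3.71 without D0 catabolic 0 h replicate 25, and that of Mdm2 was -1.05 without the last of these. Sesn2 had 36.8, 36.7 and 24.5 CPM after 15 h, all above its 10.9, 0 and 22.1 CPM without 4sU, and did not pass the test (log2 fold change 1.55, SE 1.01, edgeR adjusted p = 0.525). Its value was 2.54 without D0 anabolic 0 h replicate 57 and 0.99 without replicate 56.

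At D6, Mdm2 had 175, 150 and 131 CPM after 15 h, all above the 78.8, 123 and 118 CPM of the unlabeled libraries, with a log2 fold change of 0.56 (SE 0.70, edgeR adjusted p = 1). Cdkn1a had 23.6, 0 and 22.8 CPM (log2 fold change -0.17, SE 2.11) and Bbc3 21, 35.9 and 30.9 CPM, beside 13.8, 30.6 and 8.77 CPM without 4sU (log2 fold change 0.79, SE 1.61). The Bbc3 groups overlapped, and neither gene passed the test (edgeR adjusted p = 1 for both). Leaving out 1 library at a time, Cdkn1a ran from -0.62 (without D6 catabolic 0 h replicate 7) to 0.40 (without replicate 8), and Bbc3 from 0.47 (without D6 anabolic 0 h replicate 39) to 1.41 (without replicate 38).

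After 4sU was replaced by UTP for 9 h, no member passed the test. The counts were 0 of 8 at D0 (0.179% of all genes tested) and 0 of 9 at D6 (0.0753% of all genes tested), with 1 and 0 at an unadjusted p under 0.05 (1355 and 527 of all genes). DESeq2 gave the same 4 counts for the members and called 205 of 11569 genes at D0 and 45 of 11461 at D6. The 1 member was Bax at D0, at 14.2, 15.6 and 19.9 CPM, against 34.4, 92.1 and 18.7 CPM at the end of labeling (log2 fold change -1.52, SE 0.54, edgeR adjusted p = 0.290). Without D0 catabolic 0 h replicate 26, the library at 92.1 CPM, it was -0.68 (edgeR adjusted p = 0.689). Mdm2 was at 78.4, 98.3 and 87.8 CPM at D0 (log2 fold change 0.29, SE 0.25, edgeR adjusted p = 0.709) and 153, 155 and 114 CPM at D6 (log2 fold change -0.16, SE 0.70, edgeR adjusted p = 1). Its D0 value was 0.69 without D0 catabolic 0 h replicate 25, 0.13 without replicate 26 and 0.12 without replicate 27, and its D6 value ran from -0.26 without D6 catabolic 0 h replicate 9 to -0.06 without replicate 7 and -0.04 without D6 catabolic 9 h replicate 18. The libraries at the end of labeling serve both this comparison and that of 15 h, so the opposite signs of Bax in both comparisons share those libraries.

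**Figure D2:**
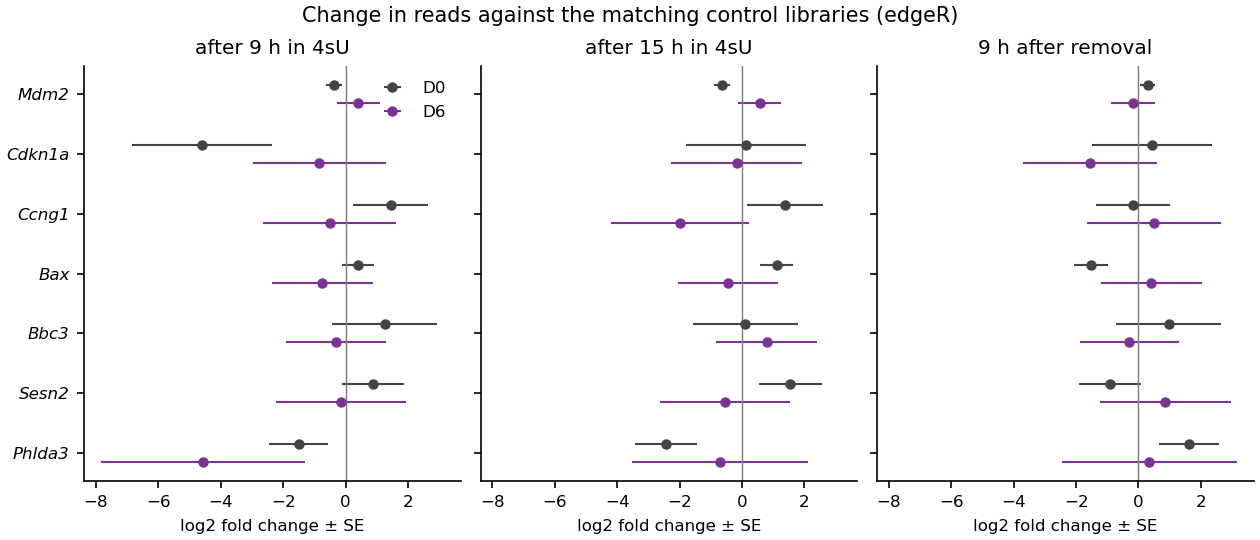
Log2 fold change in reads with its standard error (horizontal axis) for the 7 members with reads in most libraries, at D0 and D6, after 9 h and 15 h in 4sU against libraries without 4sU and 9 h after removal against the end of labeling. Standard errors at D0 are smallest for Mdm2 (0.25), and none of the values passed the adjusted test.

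The second and the third time points added no call. Over the 8 comparisons of these points with the start of their assay, 0 members were called by edgeR, where all genes were called at rates, at the second and the third points, of 0.00812% and 0.0162% (anabolic) and 0.0162% and 0.0244% (catabolic) at D0, and of 0% and 0% (anabolic) and 0% and 1.18% (catabolic) at D6. In the last of these groups, with 2 libraries, Bax had 0 and 1.13 CPM and Bbc3 0.893 and 0 CPM, both with an unadjusted p under 0.05 (edgeR adjusted p = 0.30 and 0.247). The other 2 values at that level were both at D0: Phlda3 at the third anabolic point, with 5.12, 5.32 and 3.59 CPM (edgeR adjusted p = 0.504), and Mdm2 at the second catabolic point, with 117, 99.8 and 127 CPM (edgeR adjusted p = 0.549). DESeq2 was not run on these points.

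Whether the response differed between the states was tested directly as an interaction over all 47 libraries. For 9 h, 15 h and removal, 0 of 9 members were called, and 0%, 0.00751% and 0% of the 13312 genes tested. None of the members had an unadjusted p under 0.05 in any of the 3, and DESeq2 called 0 with 0 at that level. Over all genes DESeq2 called 231, 208 and 270, and edgeR, with 1 library left out, 0 to 2, 0 to 3 and 0 to 3. For Mdm2 the difference of the 9 h effect, D6 minus D0, was 0.76 (SE 0.77) and that of the 15 h effect 1.16 (SE 0.77) on the log2 scale, with edgeR adjusted p = 1 for both.

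Few other genes of the pathway were called, and few of all genes were. The shares of all genes tested after 9 h, 15 h and removal were 0.0162%, 0.0568% and 0.179% at D0. At D6 they were 0%, 0% and 0.0753%. Of 32 further p53 targets, 29 were tested at D0 and 23 at D6, and edgeR called none in the 9 h, 15 h and removal comparisons, with medians from -0.29 to 0.16 on the log2 scale. The same comparisons called none of the 23 regulators of p53 (22 and 21 tested) and none of 20 cell cycle genes that p21 represses through the DREAM complex, whose medians were -0.24 to 0.06. Of 13 genes of the ATF4 stress response, 12 were tested and 1 rose: Ddit4, an mTOR inhibitor that p53 can also induce, was higher 9 h after removal at D0 (log2 fold change 5.40, SE 0.81, edgeR adjusted p = 0.00144). It kept the call without any 1 of the 6 libraries compared, at 4.83 to 6.44, and lost it when only those libraries were fitted (5.39, edgeR adjusted p = 0.12). At D6 its change was 1.01 (SE 1.14, edgeR adjusted p = 1), and the difference between the states did not pass the test (-4.33, SE 1.52, edgeR adjusted p = 0.399).

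Before any 4sU, the targets did not differ between the states by the test. In the D6 libraries without 4sU against those at D0, 0 of 9 members were called, where 9.50% of 13312 genes were, and 0 had an unadjusted p under 0.05, where 2964 genes had. DESeq2 called 0 members, with 1 at that level, and 2056 of 12488 genes. Cdkn1a was at 14, 15.6 and 24.1 CPM at D6, above each of the D0 values of 5.90, 0 and 4.66 CPM (log2 fold change 2.34, SE 2.07, edgeR adjusted p = 0.586). Phlda3 was at 9.29, 0.326 and 0.157 CPM, below each of the D0 values of 9.64, 64.6 and 21.9 CPM (log2 fold change -3.29, SE 1.92, edgeR adjusted p = 0.308). Without D6 anabolic 0 h replicate 37, the library at 9.29 CPM, the Phlda3 value was -6.98 (edgeR adjusted p = 0.121). Mdm2 overlapped, with a log2 fold change of -0.09 (SE 0.54).

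In the same comparison 737 of all 13312 genes were higher at D6 and 527 lower, 9.50% in all, and the counts of the first 3 lists here lie near that share. Of 29 other p53 targets, 1 was higher at D6 and 1 lower, 2 of 23 regulators and 2 of 20 DREAM targets were lower, and 1 of 13 ATF4 genes was higher and 4 lower. The p53 targets were Btg2, an antiproliferative gene (2.80), and Steap3, an iron reductase (-7.24), and the regulators were Trp73, a paralog of p53 (-8.27), and Npm1, which encodes the nucleolar protein nucleophosmin (-1.93), all as log2 fold changes. The DREAM targets were the mitotic genes Plk1 (-1.95) and Birc5 (-1.61). Of the ATF4 genes, Ddit3, which encodes the stress factor CHOP, was higher (2.54), and Atf4 itself (-0.92), the amino acid synthesis genes Asns (-2.07) and Psat1 (-1.75) and the cystine transporter gene Slc7a11 (-7.54) were lower. These genes were named after their values were seen.

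A comparison of the states over all 8 groups of each, with and without 4sU, was added after the data were seen. It uses every library, and most of these had 4sU at a dose that differed between the states. Of 9 members, 2 were called, 1 higher and 1 lower, where 45.2% of the 13312 genes were called, 16% higher and 29.1% lower, with a median log2 fold change of -0.42. The members' share is thus below that of all genes.

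The member that was higher at D6 was Cdkn1a. Over 24 libraries at D0 its lowest, median and highest levels were 0, 1.59 and 12.1 CPM, and over 23 libraries at D6 they were 0, 13.3 and 92.3 CPM, so the ranges overlapped while the median was higher at D6. The log2 fold change was 3.01 (SE 0.76, edgeR adjusted p = 0.000717). Without replicate 45 of the third anabolic time point at D6 it was 2.69 (edgeR adjusted p = 0.00214). The call was lost without replicate 14 of the third catabolic time point at D6 or without D6 catabolic 9 h replicate 16. Each was the only library of its group with reads of Cdkn1a. The fitted values, 1.66 and 2.04, then include a group with 0 reads, so they do not measure the size of the change.

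Phlda3 was the member that was lower. Its levels were 0.306, 12.5 and 64.6 CPM at D0 (lowest, median and highest) and 0, 0.567 and 24.8 CPM at D6, for a log2 fold change of -2.25 (SE 0.69, edgeR adjusted p = 0.00521). It kept the call without any 1 of the 47 libraries, at -3.09 to -2.09. Within the anabolic assay alone the values were 3.75 for Cdkn1a and -2.60 for Phlda3 (edgeR adjusted p = 0.00520 and 0.0289), and within the catabolic assay alone 2.27 and -1.90, where neither passed (edgeR adjusted p = 0.0840 and 0.124).

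The other members were not called over all groups. Mdm2 had a median of 108 CPM at D0 and 129.5 CPM at D6 (log2 fold change 0.29, SE 0.20, edgeR adjusted p = 0.251). Bbc3 had medians of 8.37 and 21 CPM, Bax of 23.9 and 22.1 CPM, Sesn2 of 19.4 and 11.7 CPM, and Ccng1 of 10.2 and 8.41 CPM. Against the 16% of all genes that were higher and the 29.1% that were lower, 2 of 29 other p53 targets were higher and 13 lower, and 17 of 20 DREAM targets were lower with none higher. Of 23 regulators of p53, 1 was higher and 9 lower, and of 13 ATF4 genes 2 were higher and 9 lower. The neuronal and pluripotency markers moved in the same comparison, with 5 of 5 higher and 4 of 4 lower, as did the fibroblast and muscle markers, with 3 of 3 lower (median log2 fold change -5.23), and 1 of 2 glial markers, which was higher, while 0 of 2 endoderm markers were called. Their part in the results of the members was not tested.

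**Figure D3:**
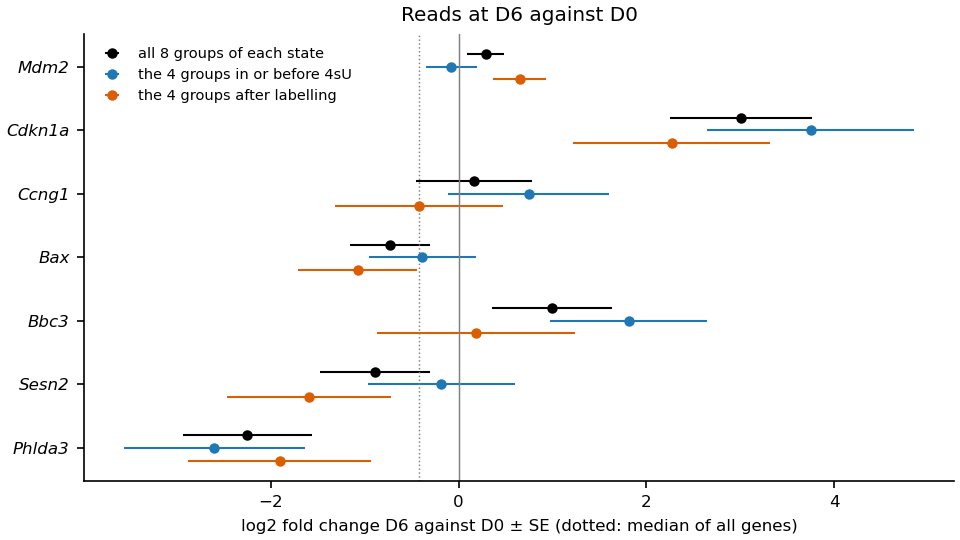
Log2 fold change in reads at D6 against D0 with its standard error (horizontal axis) for 7 members, over all 8 groups of each state and over the 4 anabolic or the 4 catabolic groups, with the median of all genes dotted. Cdkn1a lies on the higher side (3.01) and Phlda3 on the lower (-2.25) in all 3 sets.

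Among all genes, those whose log2(CPM + 1), centered within each state, tracked Cdkn1a best over the 47 libraries were Ndst1 (Pearson r = 0.659), Efemp2 (0.638), Ncl (0.636), Eloc (0.631) and Nr1h2 (0.602). No member of the p53 group was near these values. Sesn2 had an r of 0.162, Plk2 0.140, Bbc3 0.0852, Ccng1 0.0413, Bax 0.0407, Phlda3 -0.0248, Gdf15 -0.0689 and Mdm2 -0.414. These are descriptions over libraries that share depth and preparation, with no test.

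Label was then followed as T-to-C conversions per 100 covered T positions, here called the conversion rate. Only 6 members had the coverage to be tested (a mean of 1000 covered T positions), namely Mdm2, Ccng1, Bax, Bbc3, Sesn2 and Phlda3. In Mdm2, the rate in every library with 9 h or more of 4sU was above that of every library without it in both states, and it fell after removal.

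At D0 the rate of Mdm2 was 0, 0 and 0.229% without 4sU and 0.0533, 0.0501 and 0.101% at the second time point. It then stood at 1.26, 0.961 and 1.19% at the third and at 1.08, 1.34 and 1.30% at 9 h. The first 2 groups overlapped with each other, as did the last 2, and the step between them separated all libraries. After 15 h the rate was 1.20, 1.87 and 1.88%, and the 9 h level did not differ from it by the test (log2 ratio -0.41, SE 0.46, edgeR adjusted p = 1).

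At D6 Mdm2 reached higher rates under the higher dose. It went from 0.0284, 0.00843 and 0.00431% without 4sU to 3.52, 8.83 and 4.16% at 9 h, beside 4.93, 3.18 and 5.97% after 15 h (log2 ratio of 9 h to 15 h 0.23, SE 0.45, edgeR adjusted p = 1). For all 6 members together, 9 h against 15 h gave 0 calls at D0, at D6 and for the difference between states, where 0.0436%, 0.0545% and 0% of 9181 genes were called. None had an unadjusted p under 0.05 in these edgeR tests, which were not repeated with DESeq2.

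After removal at D0, Mdm2 was at 2.09, 1.29 and 1.65% at the second time point, which overlaps the end of labeling, at 0.266, 0.506 and 0.66% at the third and at 0.169, 0.227 and 0.0835% at 9 h. The log2 ratio of 9 h to the end of labeling was -3.37 (SE 1.01, edgeR adjusted p = 0.0148), and the mean rate at 9 h was 9.68% of that at the end of labeling, or 5.30% once the mean rate without 4sU (0.0763%) was subtracted from both. Over all genes the median log2 ratio was -2.36, and Mdm2 lay at the 31.5th percentile, counted from the fastest loss. Of 6 members 1 was called, Mdm2, where 30.4% of 9184 genes were. Without D0 catabolic 9 h replicate 36 its value was -3.05 and no longer passed (edgeR adjusted p = 0.0599).

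At D6, Mdm2 fell from 4.93, 3.18 and 5.97% to 0.376, 0.0231 and 0.657% (log2 ratio -3.73, SE 1.03, edgeR adjusted p = 0.00562). The mean rate left was 7.50%, or 7.23% with the rate without 4sU subtracted, and the percentile among all genes was 35.6. The loss of label from Mdm2 did not differ between the states by the test (difference -0.37, SE 1.32, edgeR adjusted p = 0.986).

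**Figure D4:**
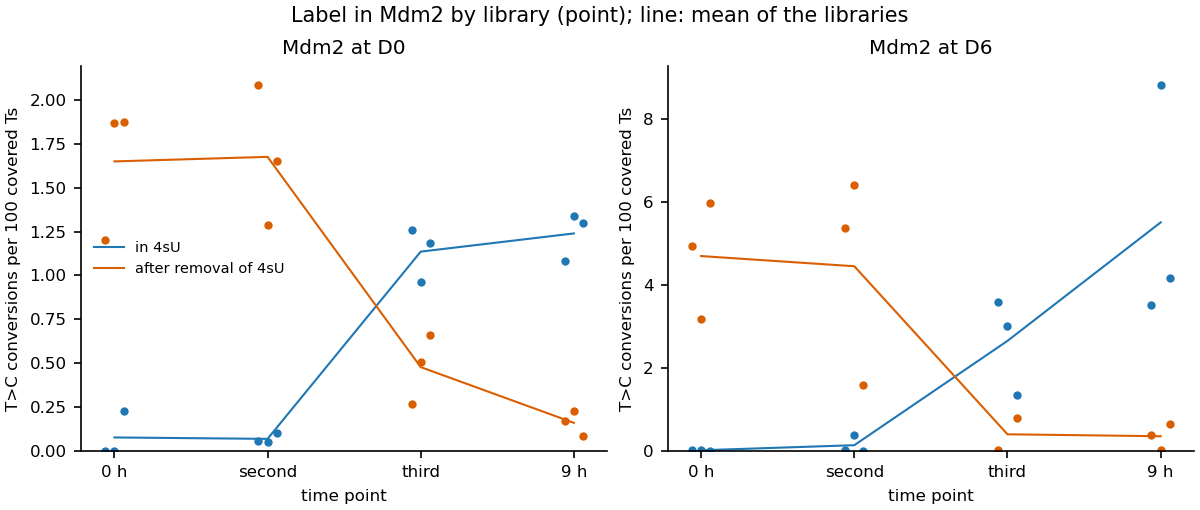
Conversions per 100 covered T positions in Mdm2 (vertical axis, linear, with different ranges at D0 and D6) in each library (points) and their mean (lines) at the 4 time points in 4sU and after its removal. Points in 4sU lie apart from those of the unlabeled libraries from the third time point on, and after removal the third and 9 h points lie below those of the end of labeling in both states.

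Loss of label was also called for Ccng1 and Sesn2 at D6, which with Mdm2 made 3 of 6 members where 45.3% of genes were called. For Ccng1 the end of labeling gave 121 conversions in 2375 covered T positions, 0 in 341 and none in a library without coverage, and 9 h after removal 0 in 714, 0 in 702 and 0 in 1261 (edgeR adjusted p = 0.0188). For Sesn2 it gave 68 in 1300, 0 in 34 and 50 in 1300, and 9 h after removal 0 in 1588 and 0 in 3019, with the last library not covered (edgeR adjusted p = 0.0355). With no conversion at 9 h, the fitted ratios do not measure the size of the loss. Covered T positions count reads, not molecules, so they overstate the depth wherever reads are copies of 1 molecule. The 50 conversions of Sesn2 in D6 catabolic 0 h replicate 9 came from 50 reads. For Ccng1, the 714 covered T positions in D6 catabolic 9 h replicate 16 came from 21 reads. The Ccng1 call rests on D6 catabolic 0 h replicate 7, which held all 121 conversions, and it was also lost without D6 catabolic 9 h replicate 18. The Sesn2 call was lost without that library or without replicate 16 or 17 at 9 h, with an edgeR adjusted p of up to 0.137.

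Bbc3 and Bax were labeled as well. Bbc3 at D6 held 4.57, 3.17 and 4.97% after 15 h, an even level over its 3 libraries, and 9 h after removal 0.882% in one library and 0 of 5972 covered T positions in another, with none covered in the last (log2 ratio -3.25, SE 2.23, edgeR adjusted p = 0.211). Bax at D6 was uneven, with 4.95, 0 and 1.91% after 15 h and 0, 0 and 0.102% after removal (log2 ratio -6.21, SE 2.68, edgeR adjusted p = 0.0575). Some well covered libraries held no label beside labeled ones of their group. Bbc3 in replicate 45 of the third anabolic time point at D6 held 0 conversions in 11317 covered T positions, while the other libraries of that group held 2.54 and 3.33%. Sesn2 held 0 in 3283 in D0 anabolic 9 h replicate 72, beside 1.03 and 2.96%. Bax held 0 in 1635 in D0 catabolic 0 h replicate 25, beside 4.19 and 0.354%, and 0 in 2621 in replicate 10 of the second catabolic time point at D6, beside 0.157 and 10.5%.

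Phlda3 held label in some groups, but not at the end of labeling. At D0 its rates were 1.53, 0.732 and 0.59% after 9 h in 4sU, whereas after 15 h it held 0 conversions in 912, 395 and 20 covered T positions, and 9 h after removal the rates were 0.162, 0 and 0%. Neither 9 h against 15 h nor the label left after removal passed the test at D0 (edgeR adjusted p = 0.827 and 0.45). At D6 the end of labeling gave 0 conversions in 396 covered T positions in its only covered library, the second time point after removal 4.12, 10.4 and 8.52%, and 9 h after removal 0 in 747, again in 1 covered library. With no conversion at the end of labeling in either state, no share of label left could be given for Phlda3. For the difference between the states in the loss of label, 0 of the 6 members tested were called (0.338% of genes) and 1, Ccng1, had an unadjusted p under 0.05 (edgeR adjusted p = 0.313).

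Half-lives were fitted to the rates relative to those at the end of labeling, with the hours of the study's methods (0, 3, 6 and 9), and kept where R squared exceeded 0.6. Mdm2 at D0 was the only member with a kept decay half-life, 283 min (R squared 0.650), where 14.9% of genes were kept with a median of 281 min. It was also the only one with a kept synthesis half-life at D0, 320 min (R squared 0.743), where 21.5% of genes were kept with a median of 422 min. At D6 no member was kept for decay (16.8% of genes were, with a median of 221 min) or for synthesis (9.54%, median 380 min). The D6 fits of Mdm2 fell short with R squared of 0.542 for decay and 0.512 for synthesis. The hours matter for these values: with those of the sample labels (0, 1, 3 and 9), the decay and synthesis half-lives of Mdm2 at D0 were 153 and 177 min. Under those hours more genes were kept. At D0 23.4% were kept for decay and 43.1% for synthesis, with medians of 202 and 250 min. At D6 24.7% and 23.65% were kept, with medians of 137 and 247 min.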

How the data were processed

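Per the file headers, the authors counted 3′ UTR reads and T-to-C conversions with slamdunk 0.3.3 on mm10 and deposited, for each interval, read counts, covered T positions and converted T counts, with a conversion fraction and CPM. The deposited fraction and CPM were not used here. Both were recomputed from the counts. All 47 libraries were mapped from their titles, and no columns of other samples were present. Intervals of a RefSeq transcript were summed, and 1 transcript with the most reads was kept for each gene.

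Reads were tested with edgeR 4.0.16 (R 4.3.3; TMM, filterByExpr, quasi-likelihood test, Benjamini-Hochberg adjusted p under 0.05) in 1 model per state, or over all libraries for differences between states. Conversions were tested likewise with the log of covered T positions as offset. The scripts were tested on simulated data. For reads, the simulated spread between libraries was below that fitted at D6, so power at D6 is not known from it. DESeq2 1.42.0, RLE scaling, no filter, other coverage minimums, other hours and leaving out each library were the alternatives. The genes named were every member, up to 3 called genes of each list with the largest changes in each exposure or removal comparison, and the 5 genes most like Cdkn1a. Genes of the lists called at D6 against D0 without 4sU were named outside this rule, after their values were seen. The members and lists were chosen with earlier results of these data known. Depth limits low counts: 3 reads in the shallowest library are 2.23 CPM before TMM scaling. Intervals and floors cover counting error only.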

Additional observations from a re-analysis of the deposited data

How the results depend on the processing

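No paired analysis was possible because every library has a number of its own, shared with no other group. Of the members' counts of calls, 74 settings other than leaving out a library gave the same as reported and 9 did not, and of the single values 93 were the same, 3 moved, 2 no longer passed and 1 turned. Taking the mean of the 8 groups of each state in place of the unlabeled libraries called 2 members and turned Mdm2 at D6 against D0 to 0.29. Over all groups, the catabolic assay alone called 0, with Cdkn1a at 2.27 and Phlda3 at -1.90. Without the third catabolic time points, or with state as the only term, Bbc3 was called as well (1.67 and 1.65), and with state as the only term 3173 genes were higher and 3269 lower, in place of 2135 and 3878. Under a coverage minimum of 10000, Mdm2 was the only member covered enough to be tested for loss of label at D6, and it was called. Of all genes, 2483 of 2966 were called there.

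Half-lives depended on the hours. Under the hours of the labels, and with 0 and 9 h only, members kept were 2 and 2 for decay at D0, 1 and 2 for decay at D6, and 1 and 1 for synthesis at D6. The half-life of Mdm2 at D0 was then 153 and 160 min for decay, and under the hours of the labels 177 min for synthesis.

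Leaving out 1 library at a time, members called ranged from 1 to 4 over all groups, 0 to 1 for loss of label at D0 and 1 to 4 at D6, and members kept from 0 to 1 for decay at D0, 0 to 2 for decay at D6 and 0 to 1 for synthesis at D6. The log2 values ranged from -0.18 to 0.087 for Mdm2 at D6 against D0 without 4sU (turned without D6 anabolic 0 h replicate 37), 1.66 to 3.21 for Cdkn1a over all groups, -3.71 to -3.05 for label left in Mdm2 at D0, and -0.29 to 0.47 for Mdm2 at 9 h relative to 15 h at D6 (turned without D6 anabolic 9 h replicate 53). The fitted values for label left at D6, which are not sizes since 9 h held 0 conversions, ran from -8.70 to 0 for Ccng1 and from -9.20 to -8.16 for Sesn2. The 4 calls over all groups came without D6 anabolic second time point replicate 41, where Bax (-1.31) and Sesn2 (-1.48) were added. The lowest Cdkn1a value, 1.66, came from a fit in which a group held 0 reads of it, so it is not a size.

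Over all genes, DESeq2 and the other settings called 0 to 89 genes after 9 h at D0 and 0 to 29 at D6. After 15 h they called 0 to 410 and 0 to 20, and after removal 0 to 205 and 8 to 74. At D6 against D0 without 4sU they called 1255 to 2106. The mean over the 8 groups of each state, a different comparison, called 6013. For the differences between states after 9 h, 15 h and removal the counts were 10 to 231, 12 to 208 and 40 to 270. Leaving out 1 library gave 1 to 60 and 0 to 4 after 9 h, 20 to 131 and 0 to 0 after 15 h, and 3 to 67 and 0 to 6 after removal, in place of 2, 0, 7, 0, 22 and 9. It gave 0 to 8 at D0 and 0 to 92 at D6 for label at 9 h relative to 15 h, in place of 4 and 5. The difference between the states in that ratio had 0 to 24 genes called, in place of 0. For label left after removal it gave 1669 to 2393 genes at D0, 3230 to 3818 at D6 and 7 to 113 for the difference between states, in place of 2793, 4158 and 31. The cause of these differences was not tested.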
